A study of Homo sapiens with 34 samples.

Results

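The effect of ZEB2 knockdown at day 10 of cardiac differentiation was read from 4 RNA-seq libraries, out of 34 libraries in all, of differentiating H1 cells. H1 is an established line of human ESCs. The 4 libraries are replicates 3 and 4 of ZEB2 shRNA cells and replicates 3 and 4 of WT cells. Both groups were transduced with a lentiviral shRNA vector and selected with puromycin. The vector of ZEB2 shRNA cells targeted ZEB2. That of WT cells was empty or targeted GFP, with no label for which WT library held which. Both groups received CHIR99021, a GSK3β inhibitor that activates WNT signaling, for the first 24 h, the WNT inhibitor IWP2 from day 2 to day 5, and insulin from day 7. Replicates 1 and 2 of both groups at day 10 were kept apart, because their columns in the count table hold 1077 rows more than the accession column, and are described further on as a separate reading. The other libraries, in 15 groups over days 0, 2, 6 and 10, held shRNA lines against NKX2-5, ZEB2 or ZNF503 and WT cells. The labels call the replicates biological, but do not say that each came from its own differentiation, so the p-values measure the spread between these libraries.

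ZEB2 is a zinc-finger transcription factor that binds pairs of E-box-like sites (CACCTG and related sequences), interacts with SMAD proteins of the TGF-beta and BMP pathways, and is best known as a repressor of CDH1 and other epithelial genes during epithelial-to-mesenchymal transition. That transition takes place when mesoderm leaves the epithelium of the early embryo and again when endocardial and epicardial cells become mesenchymal. Cardiomyocytes (CMs) in culture are recognized by their sarcomere genes, calcium-handling genes and a core of cardiac transcription factors.

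The 4 libraries held between 9189588 and 29548573 counts on the genes used, the smallest being WT replicate 4. Levels are given as CPM, counts per 1000000 counts of a library after TMM scaling, and 3 counts, taken as the limit of detection, were worth 0.157, 0.330, 0.0938 and 0.130 CPM in WT replicates 3 and 4 and ZEB2 shRNA replicates 3 and 4. Differences are log2 fold changes of ZEB2 shRNA over WT cells, with their standard error (SE) and adjusted p (edgeR, quasi-likelihood, Benjamini-Hochberg). A gene was called where it differed at least 8-fold at a 1% false discovery rate (FDR), the threshold of the study for day 10, and is said to have risen or fallen where it passed a 5% FDR. All 6 cardiomyocyte markers fixed for checking the label were present, with a summed level of 15233 and 12423 CPM in WT and 5255 and 3472 CPM in ZEB2 shRNA cells. PTPRC, the pan-leukocyte marker, and SOX1, a neural progenitor marker, were at 0 in all 4 libraries, and the pluripotency factors POU5F1 and SOX2 held at most 13 counts in any of them. In bulk samples like these, fewer cells of a type and less RNA per cell cannot be told apart.

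ZEB2 itself (chr2:145121931-145278624 in GRCh37, minus strand, a protein-coding gene) stood at 119 and 108 CPM in WT and 55.6 and 55.6 CPM in ZEB2 shRNA cells. Both ZEB2 shRNA libraries were below both WT libraries, and the mean that remained was 49.2% of the WT mean. The log2 fold change was -1.02 with an SE of 0.34, and its adjusted p was 0.0793 in the fit that took its spread also from the NKX2-5 shRNA libraries of day 10, where ZEB2 stood at 66.1 and 146 CPM. In a fit of the 4 libraries alone the adjusted p was 0.000982. In the earlier libraries of the same line, the difference was 0.13 at day 0 (adjusted p = 0.961), -0.63 at day 2 (adjusted p = 0.185) and -0.77 at day 6 (adjusted p = 0.00136) on the log2 scale.

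ZEB2 shRNA cells at day 10 had lower levels of the genes of the cardiac contractile apparatus and higher levels of epithelial genes than WT. Of 17002 genes tested, 248 were called (1.46%), of which 166 were higher (0.976%) and 82 lower (0.482%) in ZEB2 shRNA cells. At 5% FDR, 3096 genes differed (18.2%), 1791 higher (10.5%) and 1305 lower (7.68%). The libraries of the 2 groups did not overlap for any of the 248 called genes, against 70.7% of all genes tested. The call line fell among genes of much the same size: RSPO3 (log2 fold change -3.01) and LINC00261 (3.001) lay just inside it, and TRIM63 (-2.997) and CYP2S1 (2.99) just outside. Of 875 genes at 1% FDR, 627 changed less than 8-fold. Leaving out any 1 of the 4 libraries left 0 genes called by edgeR, 0 each without WT replicate 3, WT replicate 4, ZEB2 shRNA replicate 3 or ZEB2 shRNA replicate 4. Between 598 and 824 genes then still differed 8-fold or more at an unadjusted p under 0.05, and between 403 and 884 passed 5% FDR. Each of the 248 genes kept its direction in each of these fits, and 227 to 241 of them kept an 8-fold difference. For lists below with 0 members past 5% FDR in a direction, 0 members had an unadjusted p under 0.05 in that direction and 0 passed with DESeq2, apart from 1 member of the metabolism list at an unadjusted p.

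The 12 largest rises among called genes with at least 5 CPM in ZEB2 shRNA cells were mostly genes with few or no counts in WT. GABRP (chr5:170190354-170241051, plus strand), a GABA-A receptor subunit found in epithelia, stood at 1.73 and 2.64 CPM in WT and 743 and 663 CPM in ZEB2 shRNA cells (log2 fold change 8.38, SE 0.85, adjusted p = 0.00237). VTCN1, an immune-checkpoint ligand of the B7 family, stood at 0.523 and 0.11 CPM in WT and 90.5 and 87.4 CPM in ZEB2 shRNA cells (log2 fold change 7.87, SE 0.43, adjusted p = 0.00133). TNFSF15, a TNF-family cytokine, stood at 0.314 and 0.22 CPM in WT and 36.2 and 28.9 CPM in ZEB2 shRNA cells (log2 fold change 6.83, SE 0.42, adjusted p = 0.00159). In each of these 3 genes both ZEB2 shRNA libraries were far above both WT libraries. The AP-2 transcription factor TFAP2A, a regulator of surface ectoderm, neural crest and trophoblast, held 2 and 0 counts in WT and 953 and 464 counts in ZEB2 shRNA cells, a ratio of 363 per unit of depth with a 95% counting interval of 100 to 3000. The albumin-family gene AFM held 2 and 0 counts against 220 and 280, a ratio of 128 with a counting interval of 35.3 to 1060. AFM had the other sign in replicates 1 and 2, at 1.27 and 1.38 CPM in WT and 1.76 and 0.39 CPM in ZEB2 shRNA cells (-0.20, adjusted p = 0.883), and TNFSF15 kept its sign without passing (1.62, adjusted p = 0.143).

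For 7 more of the 12, both WT libraries were at 0, so that the difference is given as a bound computed against 3 counts in each WT library. NECTIN4, an adhesion molecule of epithelial junctions, stood at 9.45 and 10.5 CPM in ZEB2 shRNA cells, at least 41.0-fold higher than WT (adjusted p = 0.00367). TFAP2B, another AP-2 factor, stood at 8.63 and 5.61 CPM, at least 29.3-fold higher (adjusted p = 0.00526). VGLL1, a cofactor of TEAD transcription factors expressed in trophoblast, stood at 6.41 and 4.88 CPM, at least 23.2-fold higher (adjusted p = 0.00575). Among the 4 libraries these 3 genes were detected in those of ZEB2 shRNA cells only. NECTIN4 was detected in both groups in replicates 1 and 2, at 0.714 and 0.691 CPM in WT and 1.65 and 1.4 CPM in ZEB2 shRNA cells (log2 fold change 1.12, adjusted p = 0.334), and VGLL1 did not pass either (2.24, adjusted p = 0.202). TFAP2B held too few counts in replicates 1 and 2 to be tested, so that its rise was not seen there. The secreted factor ISM1 (4.72 and 7.26 CPM, at least 24.6-fold), the GABA-A receptor subunit GABRG3 (7.23 and 5.66 CPM, at least 26.5-fold), the muscle protein gene IGFN1 (5.54 and 7.04 CPM, at least 25.9-fold) and the noncoding RNA LINC00379 (6.79 and 9.07 CPM, at least 32.6-fold) had the same pattern in replicates 3 and 4. ISM1 and GABRG3 also held too few counts in replicates 1 and 2 to be tested, so that their rise was not seen there. For IGFN1 and LINC00379 no row was matched in replicates 1 and 2. One more AP-2 factor, TFAP2C, was also called, with 4 and 0 counts in WT, at 0.209 and 0 CPM in WT and 6.48 and 5.01 CPM in ZEB2 shRNA cells (log2 fold change 5.36, SE 0.78, adjusted p = 0.00584), and did not pass in replicates 1 and 2 (1.03, adjusted p = 0.366).

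The 12 largest falls held many genes of striated muscle. PLN, which encodes phospholamban, the regulator of the sarcoplasmic reticulum calcium pump, stood at 122 and 142 CPM in WT and 5.47 and 4.66 CPM in ZEB2 shRNA cells (log2 fold change -4.70, SE 0.47, adjusted p = 0.00226). SRL, which encodes sarcalumenin, a calcium-binding protein of the sarcoplasmic reticulum, stood at 67.2 and 60.8 CPM in WT and 3.88 and 2.16 CPM in ZEB2 shRNA cells (log2 fold change -4.39, SE 0.59, adjusted p = 0.00454). MB, which encodes myoglobin, the oxygen store of muscle, stood at 36.6 and 34.6 CPM in WT and 1.47 and 0.561 CPM in ZEB2 shRNA cells (log2 fold change -5.09, SE 0.70, adjusted p = 0.00492). In these 3 genes WT libraries were 10 or more times higher than either ZEB2 shRNA library. The muscle ubiquitin ligase subunit gene FBXO40 stood at 33.9 and 27.7 CPM in WT and 1.13 and 0.993 CPM in ZEB2 shRNA cells (log2 fold change -4.85, SE 0.49, adjusted p = 0.00237), and TXLNB, a taxilin of striated muscle, stood at 25.8 and 20.7 CPM in WT and 0.438 and 0.345 CPM in ZEB2 shRNA cells (log2 fold change -5.86, SE 0.42, adjusted p = 0.00194). The fatty acid-binding protein gene FABP2 (10.1 and 14.7 against 0.188 and 0.13 CPM), the glutamate receptor gene GRIA1 (36.6 and 14 against 1.0 and 0.518 CPM), the retinoid receptor gene RXRG (53.2 and 28.8 against 2.88 and 0.95 CPM), and NELL2, SERTM1 and SYPL2 were also among them, with log2 fold changes between -6.21 and -4.40. FABP2, the largest fall, held too few counts in replicates 1 and 2 to be tested, so that its WT level was not seen there. HSPB2 completed the 12 (21.8 and 26.3 against 1.06 and 0.864 CPM), but is uncertain, since 70.9% of its exonic bases overlap CRYAB and 85.3% overlap a read-through transcript.

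**Figure D1:**
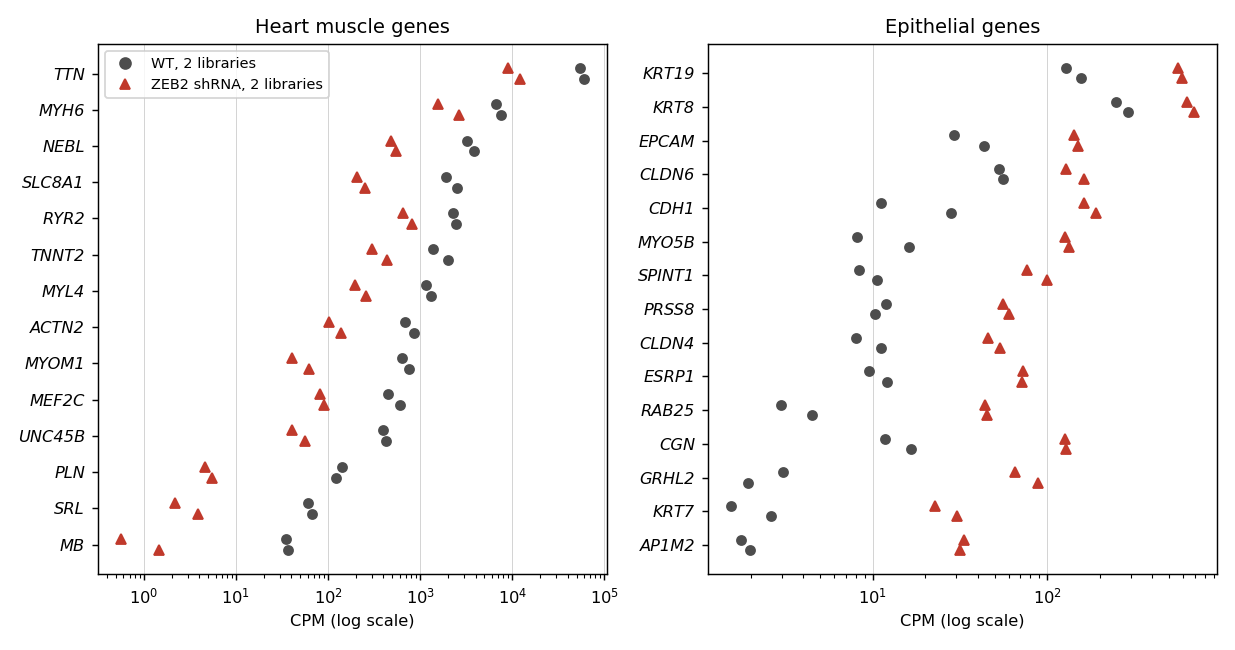
Levels of 14 heart muscle genes (left) and 15 epithelial genes (right) in each library at day 10, as CPM on a log axis. Circles are the 2 WT libraries and triangles the 2 ZEB2 shRNA libraries. In every row of the left panel both triangles lie to the left of both circles, and in every row of the right panel both lie to the right.

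Sarcomere genes, which build the thick and thin filaments, the Z-disc and the M-band, were lower in ZEB2 shRNA cells almost without exception. Of 42 tested, 28 fell and 0 rose at 5% FDR, beside 7.68% and 10.5% of all genes, 6 were called lower, and the median log2 fold change was -2.32, beside 0.03 over all genes tested. In 41 of the 42 both ZEB2 shRNA libraries were below both WT libraries, beside 70.7% of all genes without overlap in either direction. The summed level of the list was 96557 and 85442 CPM in WT and 23642 and 17694 CPM in ZEB2 shRNA cells, most of it from TTN. TTN, which encodes the giant elastic protein titin, stood at 60421 and 54587 CPM in WT and 12194 and 9112 CPM in ZEB2 shRNA cells (log2 fold change -2.43, SE 0.35, adjusted p = 0.00571). MYOM1, which encodes myomesin of the M-band, stood at 766 and 629.6 CPM in WT and 62.4 and 40.9 CPM in ZEB2 shRNA cells (log2 fold change -3.76, SE 0.33, adjusted p = 0.00202). UNC45B, the chaperone that folds muscle myosin, stood at 426 and 397 CPM in WT and 56.6 and 40.4 CPM in ZEB2 shRNA cells (log2 fold change -3.08, SE 0.30, adjusted p = 0.00222). TTN thus fell about as far as the median of the list, while MYOM1 and UNC45B fell further and were called.

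The other 4 called sarcomere genes were MYPN, SMPX, TNNI3 and XIRP2. The Z-disc protein gene MYPN stood at 34.3 and 36.8 CPM in WT and 2.69 and 1.81 CPM in ZEB2 shRNA cells (log2 fold change -3.97, SE 0.33, adjusted p = 0.00202). TNNI3, which encodes the troponin I of adult heart, stood at 38.8 and 33.1 CPM in WT and 3.6 and 2.25 CPM in ZEB2 shRNA cells (log2 fold change -3.61, SE 0.33, adjusted p = 0.00215). SMPX, a small muscle protein gene, stood at 155 and 123 CPM in WT and 16.3 and 18.2 CPM in ZEB2 shRNA cells (log2 fold change -3.01, SE 0.40, adjusted p = 0.00433). XIRP2, which encodes an actin-binding repeat protein, was low throughout, at 4.81 and 4.5 CPM in WT and 0.125 and 0.345 CPM in ZEB2 shRNA cells (log2 fold change -4.33, SE 0.70, adjusted p = 0.00826), and in none of the 4 genes did the groups overlap. MYOZ2 (log2 fold change -2.97, adjusted p = 0.00202), PDLIM5 (-2.58, adjusted p = 0.00202) and MYL4, the atrial light chain (-2.45, adjusted p = 0.00217), fell by less than 8-fold.

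The classical CM markers were among the genes whose tests disagreed between fits. TNNT2, cardiac troponin T, stood at 2021 and 1383 CPM in WT and 439 and 297 CPM in ZEB2 shRNA cells (log2 fold change -2.21, SE 1.08, adjusted p = 0.196), and MYH6, the atrial myosin heavy chain, at 7620.1 and 6681 CPM in WT and 2621 and 1559.5 CPM in ZEB2 shRNA cells (log2 fold change -1.77, SE 1.03, adjusted p = 0.268). In both genes the ZEB2 shRNA libraries lay well below the WT libraries. The NKX2-5 shRNA libraries, which share in the estimate of the spread, differed from each other by far more, at 1.37 and 40.5 CPM for TNNT2 and 3.98 and 82.8 CPM for MYH6, and in the fit of the 4 libraries alone the adjusted p was 0.000359 and 0.000982. In that fit, which called 3.10% of 16494 genes and in which 17.1% of genes fell at 5% FDR, 40 of the 42 sarcomere genes fell. ACTN2, the Z-disc alpha-actinin, fell in the main fit as well (864 and 690.2 against 139.9 and 103 CPM, adjusted p = 0.0371), as did the ventricular myosin MYH7 (853 and 598 against 264 and 145 CPM, adjusted p = 0.0139). MYL7, the atrial regulatory light chain, stood at 3767 and 2899 CPM in WT and 1751 and 1346 CPM in ZEB2 shRNA cells, with an adjusted p of 0.22. Without WT replicate 3, WT replicate 4, ZEB2 shRNA replicate 3 or ZEB2 shRNA replicate 4, 10, 12, 10 and 7 sarcomere genes fell.

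Calcium-handling genes, which couple the action potential to contraction, were mostly lower as well. Of 20 tested, 13 fell and 1 rose at 5% FDR, beside 7.68% and 10.5% of all genes, with a median log2 fold change of -1.88. PLN and SRL were called lower by edgeR, against 5 members by DESeq2. SLC8A1, the sodium-calcium exchanger, stood at 2526 and 1898 CPM in WT and 249.6 and 204 CPM in ZEB2 shRNA cells (log2 fold change -3.28, SE 0.70, adjusted p = 0.0203). PPP1R1A, a phosphatase inhibitor, stood at 39.8 and 47.4 CPM in WT and 10.1 and 5.66 CPM in ZEB2 shRNA cells (log2 fold change -2.46, SE 0.35, adjusted p = 0.0056), and the kinase gene CAMK2A at 57.9 and 90.9 CPM in WT and 23.2 and 20.5 CPM in ZEB2 shRNA cells (log2 fold change -1.76, SE 0.26, adjusted p = 0.00634). RYR2, the calcium release channel, stood at 2428 and 2290.2 CPM in WT and 815 and 656 CPM in ZEB2 shRNA cells, below WT in both libraries, with an adjusted p of 0.0653 (0.000206 in the 4-library fit). The member that rose was SLN, which encodes sarcolipin, an atrial inhibitor of the calcium pump, at 3.92 and 1.1 CPM in WT and 43.2 and 56.2 CPM in ZEB2 shRNA cells (log2 fold change 4.21, SE 0.71, adjusted p = 0.00948), and it was called. SLN did not do so in replicates 1 and 2, where its log2 fold change was -1.29 (adjusted p = 0.288). Without each of the 4 libraries in the order above, 3, 2, 3 and 1 calcium-handling genes fell.

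Ion channel genes of excitation were more often lower than higher. Of 35 tested, 10 fell and 3 rose, beside 7.68% and 10.5% of all genes, so that the share that rose was under that of all genes, with a median of -0.69, and 2 were called lower. KCNH7, a voltage-gated potassium channel gene, stood at 313 and 303 CPM in WT and 36.3 and 25.1 CPM in ZEB2 shRNA cells (log2 fold change -3.33, SE 0.34, adjusted p = 0.00237). ABCC9, the regulatory subunit of the cardiac ATP-sensitive potassium channel, stood at 14.3 and 14 CPM in WT and 2.0 and 1.43 CPM in ZEB2 shRNA cells (log2 fold change -3.03, SE 0.35, adjusted p = 0.00328). The L-type calcium channel gene CACNA1C fell (log2 fold change -0.92, adjusted p = 0.0253). GJA1, which encodes the gap junction protein connexin 43, rose from 91.1 and 62.5 CPM in WT to 295 and 357 CPM (log2 fold change 2.09, SE 0.26, adjusted p = 0.00399). KCNJ2, an inward rectifier gene, stood at 1.41 and 0.22 CPM in WT and 14.4 and 15.5 CPM in ZEB2 shRNA cells (log2 fold change 4.03, SE 0.70, adjusted p = 0.0102), but at a log2 fold change of -0.22 in replicates 1 and 2 (adjusted p = 0.81).

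Cardiac transcription factors were more often lower than higher. Of 39 tested, 10 fell and 3 rose at 5% FDR, beside 7.68% and 10.5% of all genes, so that the share that rose was under that of all genes, and the median was -0.49. By edgeR 0 were called and by DESeq2 1 was, and 16 were lower and 5 higher at an unadjusted p under 0.05. MEF2C, a MADS-box factor of the heart field and of muscle, stood at 599 and 449.9 CPM in WT and 89.5 and 82.7 CPM in ZEB2 shRNA cells (log2 fold change -2.61, SE 0.22, adjusted p = 0.00202). MEF2A stood at 428 and 499 CPM in WT and 125 and 112 CPM in ZEB2 shRNA cells (log2 fold change -1.97, SE 0.19, adjusted p = 0.00222), and MYOCD, the coactivator of serum response factor in cardiac and smooth muscle, at 322 and 371 CPM in WT and 113 and 85.7 CPM in ZEB2 shRNA cells (log2 fold change -1.80, SE 0.21, adjusted p = 0.00331). These 3 genes fell in both ZEB2 shRNA libraries. TBX20 (-1.98, adjusted p = 0.00788), PROX1 (-1.75, adjusted p = 0.00224) and NKX2-5 (-2.18, adjusted p = 0.0359) fell as well. HAND1, a factor of the early left ventricle, of lateral mesoderm and of trophoblast, went the other way, at 52.6 and 63.1 CPM in WT and 176 and 172 CPM in ZEB2 shRNA cells (log2 fold change 1.59, SE 0.19, adjusted p = 0.00355). In replicates 1 and 2, 8 of 40 cardiac transcription factors fell, beside 7.26% of all genes, and 0 rose. At an unadjusted p under 0.05, 4 were higher, and the median was -0.28. MEF2C, MEF2A, MYOCD and PROX1 passed there in the same direction. NKX2-5 (-0.88, adjusted p = 0.237), TBX20 (-0.92, adjusted p = 0.0663) and HAND1 (0.55, adjusted p = 0.0637) kept their signs without passing.

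Genes of heart muscle metabolism, which carry fatty acid oxidation, creatine phosphate and oxygen supply, fell in 16 of 34 cases and rose in 0, beside 7.68% and 10.5% of all genes, with a median of -1.0. MB and ADPRHL1, a heart-enriched ADP-ribosylhydrolase-like gene, were called lower. ADPRHL1 stood at 159 and 155 CPM in WT and 23.7 and 11.5 CPM in ZEB2 shRNA cells (log2 fold change -3.15, SE 0.35, adjusted p = 0.00283), FABP3, the heart fatty acid-binding protein gene, at 152 and 131 CPM in WT and 32.8 and 24.4 CPM in ZEB2 shRNA cells (log2 fold change -2.31, SE 0.25, adjusted p = 0.00283), and PPARGC1A, the coactivator of mitochondrial biogenesis, at 515 and 370.5 CPM in WT and 113 and 94.5 CPM in ZEB2 shRNA cells (log2 fold change -2.10, SE 0.30, adjusted p = 0.00552). In all 3 genes the WT libraries were above the ZEB2 shRNA libraries with no overlap. Of 9 natriuretic and hormone genes tested, 2 fell and 1 rose, with a median of 0.54. The share that rose was close to the 10.5% of all genes, and 7.68% of all genes fell. CORIN, the protease that activates natriuretic peptides, stood at 168 and 77.7 CPM in WT and 8.63 and 9.63 CPM in ZEB2 shRNA cells (log2 fold change -3.75, SE 0.86, adjusted p = 0.0253), the endothelin receptor gene EDNRA fell (-1.41, adjusted p = 0.0125), and the natriuretic peptide clearance receptor gene NPR3 rose from below 1 CPM in WT to 8.23 and 16.6 CPM (adjusted p = 0.0433).

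**Figure D2:**
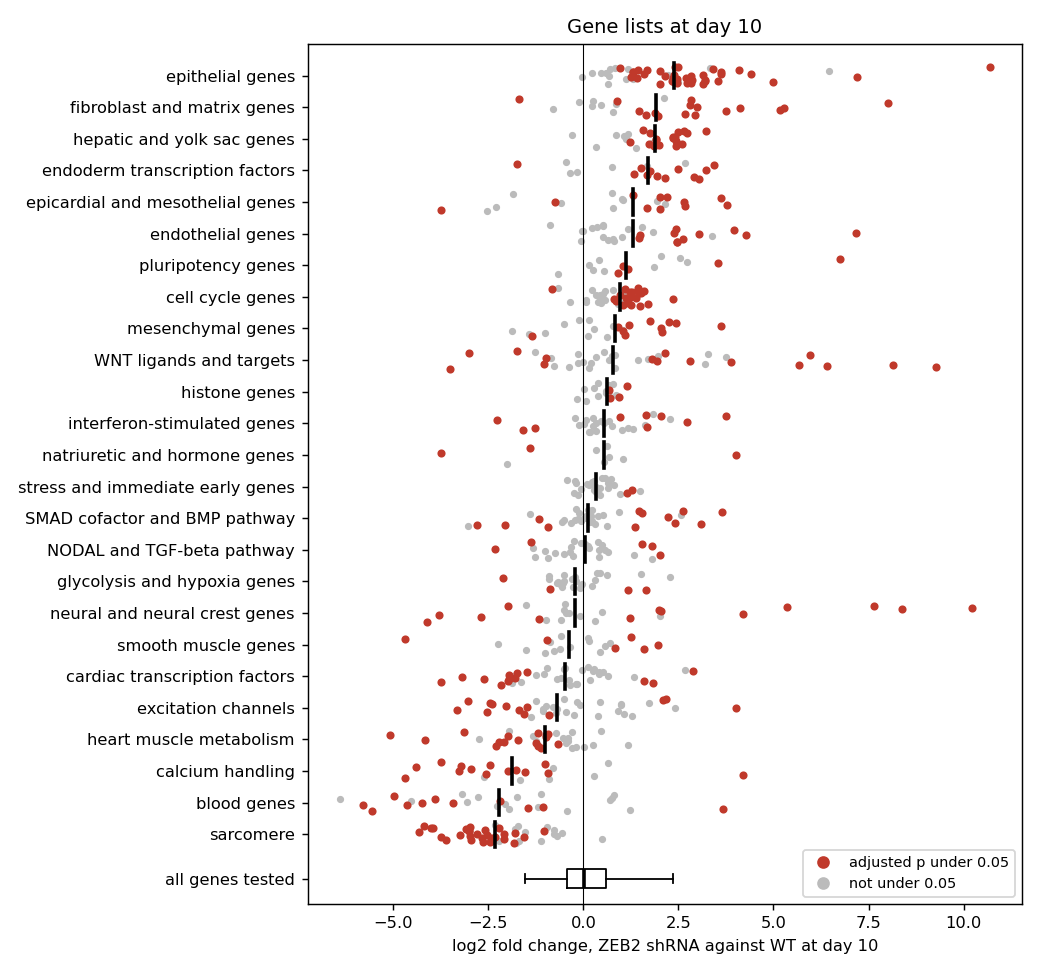
Log2 fold changes of ZEB2 shRNA against WT at day 10 for each member of 25 gene lists, ordered by the list median (black bars). Red points passed an adjusted p under 0.05 and grey points did not, and the box at the bottom gives the quartiles and the 5th to 95th percentile of all 17002 genes. Sarcomere genes lie at the lower end with a median of -2.32 and epithelial genes at the upper end with a median of 2.39.

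Epithelial genes, which encode the adherens and tight junctions, keratins, polarity proteins and the epithelial splicing and transcription factors, rose as a group. Of 53 tested, 38 rose and 0 fell at 5% FDR, beside 10.5% and 7.68% of all genes. Of them 9 were called higher, and the median log2 fold change of the list was 2.39 (2.32 with genes absent from WT set at their bound). In 52 of the 53 both ZEB2 shRNA libraries were above both WT libraries, beside 70.7% of all genes without overlap in either direction. The summed level of the list was 2699.8 and 2313 CPM in WT and 5953 and 5709 CPM in ZEB2 shRNA cells. Without each of the 4 libraries in the order above, 24, 14, 19 and 22 epithelial genes rose. The 4 hepatic markers, which belong to another epithelium, stood at a summed 3683 and 1472 CPM in WT and 6827 and 8202 CPM in ZEB2 shRNA cells, and their part in the rise of epithelial genes was not tested.

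CDH1 (chr16:68771195-68869440, plus strand), which encodes E-cadherin, the core of the adherens junction and the best known target of ZEB repressors, stood at 28.2 and 11.2 CPM in WT and 191 and 163 CPM in ZEB2 shRNA cells (log2 fold change 3.14, SE 0.41, adjusted p = 0.00424). GRHL2, a transcription factor that maintains epithelial identity, stood at 1.93 and 3.08 CPM in WT and 87.9 and 65.5 CPM in ZEB2 shRNA cells (log2 fold change 4.98, SE 0.41, adjusted p = 0.00202). RAB25, a small GTPase of epithelial recycling endosomes, stood at 4.5 and 2.97 CPM in WT and 45.1 and 43.7 CPM in ZEB2 shRNA cells (log2 fold change 3.54, SE 0.26, adjusted p = 0.00202). All 3 genes were low in both WT libraries and many times higher in both ZEB2 shRNA libraries. AP1M2, the epithelial subunit of a sorting adaptor, stood at 1.99 and 1.76 CPM in WT and 31.6 and 33.4 CPM in ZEB2 shRNA cells (log2 fold change 4.10, SE 0.30, adjusted p = 0.00194). MYO5B, the motor that carries RAB11 and RAB25 vesicles, stood at 16.1 and 8.13 CPM in WT and 134 and 125 CPM in ZEB2 shRNA cells (log2 fold change 3.40, SE 0.36, adjusted p = 0.00252). KRT7, a simple-epithelium keratin, stood at 2.61 and 1.54 CPM in WT and 30.2 and 22.8 CPM in ZEB2 shRNA cells (log2 fold change 3.63, SE 0.35, adjusted p = 0.00222). The protease inhibitor gene SPINT1 (10.5 and 8.35 against 99.2 and 76 CPM, adjusted p = 0.0056) and the tight junction gene CGN, the ninth called member and named although the rule stopped at 8 (16.5 and 11.8 against 128 and 126 CPM, adjusted p = 0.00765), complete the called members with NECTIN4.

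More abundant epithelial genes also rose, by less than 8-fold. KRT8, a keratin already made by early embryonic cells, stood at 291 and 248 CPM in WT and 695 and 629.5 CPM in ZEB2 shRNA cells (log2 fold change 1.30, SE 0.21, adjusted p = 0.00839), and KRT19, another keratin of simple epithelia, stood at 157 and 127 CPM in WT and 594 and 558 CPM in ZEB2 shRNA cells (log2 fold change 2.02, SE 0.23, adjusted p = 0.00324). EPCAM, an adhesion molecule of epithelia and ESCs, stood at 43.5 and 29.1 CPM in WT and 150.4 and 143 CPM in ZEB2 shRNA cells (log2 fold change 2.01, SE 0.28, adjusted p = 0.00505). The libraries of the groups did not overlap for these either. The splicing regulator ESRP1 (2.73, adjusted p = 0.00344), the claudin genes CLDN4 (2.36, adjusted p = 0.00231) and CLDN6 (1.42, adjusted p = 0.00634), and the protease gene PRSS8 (2.40, adjusted p = 0.00225) rose below the 8-fold line.

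The promoters of the called epithelial genes were read for CACCTG, the E-box form bound by ZEB proteins, in the 250 bases before the start of the gene in the RefSeq annotation of GRCh38.p14. The promoters of 6 of the 9 called genes were read, and 4 of these held CACCTG on either strand (CAGGTG is the same site on the other strand). The 4 are shown because the repression of epithelial genes through such sites is what ZEB2 is known for. The site is in capitals and each sequence is on the strand of its gene, 5′ to 3′.
AP1M2 promoter, chr19:10587313-10587562, minus strand, 3 sites at 57, 27 and 15 bases before the start: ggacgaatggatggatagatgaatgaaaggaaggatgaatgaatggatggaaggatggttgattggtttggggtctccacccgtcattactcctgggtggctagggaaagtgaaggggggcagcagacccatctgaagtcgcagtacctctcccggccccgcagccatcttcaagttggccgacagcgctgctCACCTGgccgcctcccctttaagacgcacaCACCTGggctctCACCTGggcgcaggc
RAB25 promoter, chr1:156060910-156061159, plus strand, 1 site at 41 bases before the start: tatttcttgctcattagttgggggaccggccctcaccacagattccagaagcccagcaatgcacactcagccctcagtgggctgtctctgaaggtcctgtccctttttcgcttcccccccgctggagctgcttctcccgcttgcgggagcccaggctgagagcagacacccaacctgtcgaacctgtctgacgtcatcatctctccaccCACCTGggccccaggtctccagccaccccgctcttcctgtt
MYO5B promoter, chr18:50195148-50195397, minus strand, 3 sites at 168, 148 and 54 bases before the start: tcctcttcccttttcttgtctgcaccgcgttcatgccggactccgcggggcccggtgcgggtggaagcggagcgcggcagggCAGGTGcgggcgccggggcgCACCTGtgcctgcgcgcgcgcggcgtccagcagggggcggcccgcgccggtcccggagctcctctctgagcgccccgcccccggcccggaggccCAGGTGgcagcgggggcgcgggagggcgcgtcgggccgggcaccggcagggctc
NECTIN4 promoter, chr1:161089559-161089808, minus strand, 1 site at 38 bases before the start: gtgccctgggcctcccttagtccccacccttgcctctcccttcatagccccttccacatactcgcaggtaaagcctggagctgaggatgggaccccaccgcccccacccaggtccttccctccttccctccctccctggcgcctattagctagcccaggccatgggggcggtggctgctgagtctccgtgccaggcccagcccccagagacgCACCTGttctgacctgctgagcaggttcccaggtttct
In SPINT1 and CGN these letters were not in the window. The promoters of GRHL2, KRT7 and CDH1 were not read, so whether they hold the site was not tested. Among 12936 promoters of genes tested, 16.6% held the site. A comparison of shares is void, because only 54.7% of the epithelial genes tested and 76.1% of all genes tested had a sequence, under the 80% needed. A match is a description of the letters and not evidence of binding.

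Mesenchymal genes rose more often than they fell. Of 22 tested, 10 rose and 1 fell, ZEB2 not among them, beside 10.5% and 7.68% of all genes, and the median was 0.84. FN1, the matrix glycoprotein fibronectin, stood at 3623 and 3792 CPM in WT and 8021 and 7812 CPM in ZEB2 shRNA cells (log2 fold change 1.09, SE 0.27, adjusted p = 0.0317), and SNAI1, another repressor of CDH1, at 2.88 and 2.64 CPM in WT and 10.3 and 13.1 CPM in ZEB2 shRNA cells (log2 fold change 2.08, SE 0.33, adjusted p = 0.00816). MMP2, a matrix metalloprotease gene, stood at 42.3 and 34.5 CPM in WT and 160.1 and 158 CPM in ZEB2 shRNA cells (log2 fold change 2.05, SE 0.27, adjusted p = 0.00433), and THY1, a fibroblast surface antigen, at 5.91 and 3.52 CPM in WT and 22 and 23.9 CPM in ZEB2 shRNA cells (log2 fold change 2.26, SE 0.32, adjusted p = 0.00541). The member that fell was CDH2, which encodes N-cadherin, the adhesion molecule of CMs and mesenchyme, at 1141 and 984 CPM in WT and 438 and 399 CPM in ZEB2 shRNA cells (log2 fold change -1.34, SE 0.26, adjusted p = 0.0144). In replicates 1 and 2, 4 of 21 mesenchymal genes rose and 1 fell, beside 6.01% and 7.26% of all genes, with a median of 0.30. SNAI1 stood there at 25.2 and 33.7 CPM in WT and 39.7 and 42.5 CPM in ZEB2 shRNA cells (0.48, adjusted p = 0.193). CDH2 (-0.55, adjusted p = 0.136) and THY1 (1.26, adjusted p = 0.0592) did not pass there either. FN1 (1.11, adjusted p = 0.0286) and MMP2 (1.24, adjusted p = 0.0356) passed in the same direction.

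Genes of the extracellular matrix were higher in ZEB2 shRNA cells in replicates 3 and 4. Of 24 fibroblast and matrix genes tested, 15 rose and 1 fell, beside 10.5% and 7.68% of all genes, 4 were called higher, and the median was 1.92. COL5A1, a fibrillar collagen gene, stood at 278 and 308 CPM in WT and 2024 and 1715 CPM in ZEB2 shRNA cells (log2 fold change 2.68, SE 0.23, adjusted p = 0.00202), and the basement membrane gene FBLN1 at 54.8 and 38.6 CPM in WT and 349.8 and 306 CPM in ZEB2 shRNA cells (log2 fold change 2.81, SE 0.24, adjusted p = 0.00202). The called genes were COL6A3 (24.7 and 9.01 against 208 and 251 CPM, adjusted p = 0.00481), COL12A1 (3.5 and 2.31 against 125 and 90.8 CPM, adjusted p = 0.00855), the proteoglycan gene DCN (5.12 and 0.439 against 106 and 135 CPM, adjusted p = 0.00766) and POSTN, a matrix gene of cardiac fibroblasts and valves (12.4 and 5.49 against 126 and 191 CPM, adjusted p = 0.00237). In COL6A3, DCN, POSTN and COL3A1 (649 and 247 CPM) the WT libraries themselves differed more than 2-fold. VCAN, the proteoglycan of early cardiac jelly, fell, at 3766 and 2529 CPM in WT and 959.5 and 988 CPM in ZEB2 shRNA cells (log2 fold change -1.69, SE 0.36, adjusted p = 0.0191). In replicates 1 and 2, 4 of these genes rose and 3 fell, the median was 0.25, and POSTN fell (-1.93, adjusted p = 0.0145). COL6A3 (0.23, adjusted p = 0.766), COL12A1 (1.22, adjusted p = 0.291) and DCN (0.40, adjusted p = 0.679) did not pass there. Without each of the 4 libraries in the order above, 9, 7, 9 and 7 matrix genes rose.

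Epicardial and mesothelial genes rose in 9 of 22 cases and fell in 2, beside 10.5% and 7.68% of all genes, with a median of 1.31. BNC2, a zinc-finger factor of mesothelium, was called, at 6.85 and 4.5 CPM in WT and 73.7 and 85.5 CPM in ZEB2 shRNA cells (log2 fold change 3.78, SE 0.33, adjusted p = 0.00202), as was KRT7, which this list shares with the epithelial genes. BNC1 (7.74 and 7.36 against 43 and 53.2 CPM, adjusted p = 0.00202) and PODXL, a sialomucin of mesothelium and podocytes (89.4 and 99.5 against 401 and 464 CPM, adjusted p = 0.00217), also rose. The 4 epicardial markers fixed for checking cell types moved in both directions, with 2 higher and 2 lower. TCF21 rose (2.00, adjusted p = 0.0446) and TBX18 fell (-3.75, adjusted p = 0.0348). The summed level was 35.7 and 16.2 CPM in WT, most of it from TBX18, and 14.4 and 15 CPM in ZEB2 shRNA cells. In replicates 1 and 2 TCF21 (0.26, adjusted p = 0.776) and TBX18 (-4.21, adjusted p = 0.0881) kept their signs without passing. There 5 of 21 epicardial and mesothelial genes rose and 1 fell, beside 6.01% and 7.26% of all genes, with a median of 0.30. In replicates 3 and 4, 4 of 19 smooth muscle genes rose and 2 fell, with a median of -0.37, PLN being the called one. The share that fell was little above the 7.68% of all genes, and 10.5% of all genes rose.

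Endothelial genes rose in 11 of 28 cases and fell in 0, beside 10.5% and 7.68% of all genes, from low levels. CD34, a sialomucin of vascular progenitors, stood at 0.47 and 0.659 CPM in WT and 7.41 and 9.85 CPM in ZEB2 shRNA cells (log2 fold change 3.97, SE 0.37, adjusted p = 0.00217). SOX7, a SOX factor of endothelium, stood at 0.732 and 0.22 CPM in WT and 11.1 and 9.46 CPM in ZEB2 shRNA cells (log2 fold change 4.27, SE 0.52, adjusted p = 0.00367), with the limit that 39.4% of its exonic bases overlap PINX1. CDH5, the endothelial cadherin gene, stood at 1.99 and 0.659 CPM in WT and 8.85 and 6.74 CPM in ZEB2 shRNA cells (log2 fold change 2.46, SE 0.52, adjusted p = 0.0193). The groups did not overlap in these 3 genes, but they did in the summed level of the 4 endothelial markers, at 445 and 351 CPM in WT and 365 and 438 CPM in ZEB2 shRNA cells. KDR made up most of that sum, at 417 and 343 CPM in WT and 331 and 394 CPM in ZEB2 shRNA cells. Of the 4 markers 3 were higher and 1 lower, and PECAM1 (2.46, adjusted p = 0.037, from under 1 CPM in WT) and CDH5 passed 5% FDR. In replicates 1 and 2, 5 of 27 endothelial genes rose, CD34 (0.32, adjusted p = 0.681), SOX7 (0.94, adjusted p = 0.179) and CDH5 (1.41, adjusted p = 0.0632) not among them.

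Blood genes were scarce and mostly lower. Of 27 tested, 10 fell and 1 rose, beside 7.68% and 10.5% of all genes, and the median was -2.21 (-1.45 with genes under the limit set at their bound). PF4, a platelet chemokine gene, stood at 3.29 and 2.2 CPM in WT and 0.188 and 0.173 CPM in ZEB2 shRNA cells (log2 fold change -3.91, SE 0.57, adjusted p = 0.00597) and was called. PLEK, a platelet and leukocyte protein gene, held 34 and 6 counts in WT and 2 and 0 counts in ZEB2 shRNA cells, a ratio of 39.1 of WT over ZEB2 shRNA with a counting interval of 10.1 to 334. The summed level of the list differed as much between the WT libraries as between the groups, at 176 and 88.7 CPM in WT and 94.6 and 89.7 CPM in ZEB2 shRNA cells. The globin genes HBA1 (7.27 and 0.989 against 0.0313 and 0.13 CPM) and HBA2 (7.11 and 1.87 against 0.125 and 0.259 CPM) fell (adjusted p = 0.0152 and 0.0105), though as near-identical copies their reads cannot be kept apart. RUNX1, a factor of blood formation also used in other tissues, was called in the other direction, at 1.36 and 0.439 CPM in WT and 13.9 and 11.1 CPM in ZEB2 shRNA cells (log2 fold change 3.67, SE 0.52, adjusted p = 0.00533). Without each of the 4 libraries in the order above, 1, 8, 1 and 0 blood genes fell.

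Hepatic and yolk sac genes, the secretory genes of extraembryonic and definitive endoderm, rose in 18 of 27 cases and fell in 0, beside 10.5% and 7.68% of all genes, with a median of 1.89. By edgeR 0 were called and by DESeq2 1 was. AFP, alpha-fetoprotein, stood at 2980.01 and 1228 CPM in WT and 4901 and 6008 CPM in ZEB2 shRNA cells, without overlap, with an adjusted p of 0.0778. APOB, an apolipoprotein gene, stood at 1074 and 417 CPM in WT and 2323 and 2647 CPM in ZEB2 shRNA cells (log2 fold change 1.74, SE 0.43, adjusted p = 0.0317), TTR, transthyretin, at 429 and 149.97 CPM in WT and 969.8 and 1223 CPM in ZEB2 shRNA cells (log2 fold change 1.92, SE 0.46, adjusted p = 0.0297), and HNF4A, a transcription factor of liver and gut, at 18.8 and 8.57 CPM in WT and 76.2 and 80.5 CPM in ZEB2 shRNA cells (log2 fold change 2.50, SE 0.35, adjusted p = 0.0053). In each of these 4 genes WT replicate 4 was the lowest library, more than 2-fold below WT replicate 3. In replicates 1 and 2 the log2 fold change was -0.52 for AFP and -0.24 for APOB (adjusted p = 0.271 and 0.557), and 7 of 28 genes of the list rose. Without each of the 4 libraries in the order above, 24, 7, 3 and 1 hepatic genes rose. Endoderm transcription factors rose in 11 of 18 cases and fell in 1, beside the same shares of all genes, with a median of 1.71. CDX2, a factor of hindgut and trophoblast, was called, at 1.93 and 0.659 CPM in WT and 15.9 and 14.7 CPM in ZEB2 shRNA cells (log2 fold change 3.43, SE 0.40, adjusted p = 0.00327), and FOXA2, a pioneer factor of endoderm, rose (2.72 and 1.76 against 18.6 and 16.1 CPM, adjusted p = 0.00557).

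Neural and neural crest genes moved in both directions, with 8 of 24 higher and 5 lower, beside 10.5% and 7.68% of all genes, and a median of -0.23. The 3 that were called were the AP-2 genes TFAP2A, TFAP2B and TFAP2C. Of the 4 neural markers, 2 were tested, PAX6 and DCX. Their summed level was 30.3 and 32.3 CPM in WT and 3.79 and 5.66 CPM in ZEB2 shRNA cells, most of it from DCX. In replicates 1 and 2 DCX (-1.82, adjusted p = 0.16) and PAX6 (-1.60, adjusted p = 0.242) did not pass.

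ZEB2 binds SMAD proteins, and genes of the BMP and TGF-beta pathways were read for that reason. Of 38 SMAD cofactor and BMP pathway genes, 8 rose and 4 fell, beside 10.5% and 7.68% of all genes, with a median of 0.13. The share that fell was thus little above that of all genes. MSX1, a homeobox gene induced by BMP signaling, stood at 2.4 and 3.19 CPM in WT and 32.8 and 36.4 CPM in ZEB2 shRNA cells (log2 fold change 3.65, SE 0.34, adjusted p = 0.00217), and the ligand gene GDF7 at 1.05 and 1.54 CPM in WT and 10.1 and 11.5 CPM in ZEB2 shRNA cells (log2 fold change 3.10, SE 0.49, adjusted p = 0.00768), and both were called. ID1, a direct BMP target that encodes an inhibitor of bHLH factors, stood at 44 and 40.3 CPM in WT and 199 and 194 CPM in ZEB2 shRNA cells (log2 fold change 2.22, SE 0.39, adjusted p = 0.0108). The trabecular ligand gene BMP10 fell from 3.03 and 1.87 to 0.438 and 0.259 CPM (adjusted p = 0.0134) and the receptor SMAD gene SMAD9 from 132 and 141 to 57.4 and 63.7 CPM (adjusted p = 0.0105). Ligands, receptor SMADs and targets of the pathway did not share a direction. In replicates 1 and 2 MSX1 (1.35, adjusted p = 0.0241), BMP10 (-4.11, adjusted p = 0.00935) and SMAD9 (-1.22, adjusted p = 0.0187) passed in the same direction. GDF7 (0.67, adjusted p = 0.451) and ID1 (1.12, adjusted p = 0.0871) did not pass there. Of 27 NODAL and TGF-beta pathway genes, 3 rose and 2 fell, shares close to the 10.5% and 7.68% of all genes, with a median of 0.03. TGFB2, the ligand of cardiac cushion formation, stood at 1081 and 1163 CPM in WT and 239 and 208 CPM in ZEB2 shRNA cells (log2 fold change -2.32, SE 0.22, adjusted p = 0.00217). LTBP1, which tethers latent TGF-beta in the matrix, stood at 587 and 556 CPM in WT and 255 and 185 CPM in ZEB2 shRNA cells (log2 fold change -1.38, SE 0.22, adjusted p = 0.00769), while FST, the activin antagonist, rose from 33.1 and 28.8 to 96.7 and 83 CPM (adjusted p = 0.0176).

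WNT ligands and targets rose in 10 of 36 cases and fell in 5, beside 10.5% and 7.68% of all genes, with a median of 0.79, and 5 were called. RSPO3, a secreted WNT agonist, stood at 428 and 401 CPM in WT and 52.6 and 50.1 CPM in ZEB2 shRNA cells (log2 fold change -3.01, SE 0.38, adjusted p = 0.00415), and the ligand gene WNT2 at 14.9 and 24.1 CPM in WT and 1.97 and 1.38 CPM in ZEB2 shRNA cells (log2 fold change -3.52, SE 0.51, adjusted p = 0.00575). These were the called members that fell. NKD1, a feedback inhibitor induced by WNT, stood at 2.4 and 3.74 CPM in WT and 37.9 and 50.3 CPM in ZEB2 shRNA cells (log2 fold change 3.87, SE 0.51, adjusted p = 0.00443). LGR5, a receptor of R-spondins and itself a WNT target, stood at 0.209 and 0 CPM in WT and 8.66 and 8.81 CPM in ZEB2 shRNA cells (log2 fold change 5.96, SE 0.94, adjusted p = 0.00772), and WNT4 was at 0 counts in both WT libraries and at 3.57 and 3.93 CPM in ZEB2 shRNA cells, at least 15.4-fold higher (adjusted p = 0.006). An agonist and a ligand fell, therefore, where a feedback target, a receptor and another ligand rose in replicates 3 and 4. In replicates 1 and 2 RSPO3 (-2.49, adjusted p = 0.0102), WNT2 (-2.97, adjusted p = 0.0204) and LGR5 (3.78, adjusted p = 0.0236) passed in the same direction. NKD1 (1.09, adjusted p = 0.21) and WNT4 (1.35, adjusted p = 0.272) did not pass there. TNFRSF19, a receptor gene controlled by WNT, fell from 459 and 437 to 141 and 123 CPM (adjusted p = 0.00367).

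Cell cycle genes were higher in ZEB2 shRNA cells by about 2-fold. Of 39 tested, 20 rose and 1 fell, beside 10.5% and 7.68% of all genes, and the median was 0.97. At 8-fold and 1% FDR 0 were called by edgeR and 0 by DESeq2. MKI67, the proliferation antigen, stood at 106 and 93.6 CPM in WT and 267 and 291 CPM in ZEB2 shRNA cells (log2 fold change 1.48, SE 0.23, adjusted p = 0.00671), TOP2A, a topoisomerase of dividing cells, at 231 and 172 CPM in WT and 439.9 and 514 CPM in ZEB2 shRNA cells (log2 fold change 1.24, SE 0.28, adjusted p = 0.0251), and FOXM1, a factor of the G2 program, at 14.4 and 17.6 CPM in WT and 45.2 and 45.4 CPM in ZEB2 shRNA cells (log2 fold change 1.51, SE 0.23, adjusted p = 0.00647). All 3 were higher in both ZEB2 shRNA libraries. In replicates 1 and 2, 16 of 39 rose, with a median of 0.69. Without each of the 4 libraries in the order above, 4, 2, 0 and 0 cell cycle genes rose. Of 16 histone genes 4 rose and 0 fell, and of 14 pluripotency genes 5 rose and 0 fell, beside the same shares of all genes. Among the latter, L1TD1, an RNA-binding protein gene of ESCs, was called, at 4.81 and 6.15 CPM in WT and 62.4 and 65.2 CPM in ZEB2 shRNA cells (log2 fold change 3.55, SE 0.26, adjusted p = 0.00201), and LIN28A stood at 112 and 88.7 CPM in WT and 194 and 186 CPM in ZEB2 shRNA cells (log2 fold change 0.92, SE 0.25, adjusted p = 0.0433).

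Lists that report on the state of the culture were read beside the 10.5% of all genes that rose and the 7.68% that fell. Of 26 stress and immediate early genes 2 rose and 0 fell, with a median of 0.33, and of 29 interferon-stimulated genes 6 rose and 3 fell, with a median of 0.55. HLA-B was the called member, at 4.5 and 3.08 CPM in WT and 47.3 and 56.1 CPM in ZEB2 shRNA cells (log2 fold change 3.74, SE 0.31, adjusted p = 0.00202), beside HLA-C at 23.9 and 16.8 CPM in WT and 85.6 and 82.1 CPM in ZEB2 shRNA cells (log2 fold change 2.03, SE 0.25, adjusted p = 0.00367). Both belong to a family of near-identical class I genes whose reads may be shared. Of 27 glycolysis and hypoxia genes 2 rose and 2 fell, with a median of -0.22. The glucose transporter gene SLC2A3 rose from 792 and 548 to 1967 and 2232 CPM (adjusted p = 0.00769), and PDK1, the kinase that diverts pyruvate from mitochondria, fell from 2214 and 2129.9 to 520.5 and 473 CPM (adjusted p = 0.0414).

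Replicates 1 and 2 of both groups at day 10 were not used to choose the called genes and gave a second reading of them. Their rows were matched to genes in order and fitted with the same NKX2-5 shRNA libraries, and 155 of the 166 higher and 78 of the 82 lower genes could be measured. Of the 155 higher genes 143 (92.3%) were higher there too and 65 passed 5% FDR in that direction, beside 6.01% of all genes tested in those libraries, while 2 passed it in the opposite direction. Of the 78 lower genes all 78 were lower there too and 69 passed 5% FDR, beside 7.26% of all genes. The medians were 1.48 for the higher and -3.21 for the lower genes. The lower genes that were measured thus kept their direction without exception, and most higher genes did. In this set ZEB2 stood at 75.2 and 74.1 CPM in WT and 25.8 and 28 CPM in ZEB2 shRNA cells (-1.47, adjusted p = 0.0353). Replicates 1 and 2 alone called 80 genes (0.501%), of which 13 were higher (0.0814%) and 67 lower (0.420%).

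Several of the strongest genes could be followed by name in replicates 1 and 2. MYOM1 stood at 877 and 716 CPM in WT and 64.9 and 88.2 CPM in ZEB2 shRNA cells (-3.38, adjusted p = 0.00223), and PLN at 155 and 155 CPM against 5.25 and 6.47 CPM (-4.74, adjusted p = 0.00317). CDH1 stood at 40.3 and 42.9 CPM against 140.3 and 129 CPM (1.69, adjusted p = 0.00317). These 3 genes passed in both sets in the same direction. GABRP stood at 19.3 and 16.6 CPM against 72 and 51.5 CPM (1.78, adjusted p = 0.111), and TFAP2A at 5.31 and 1.84 CPM against 17 and 6.23 CPM (1.68, adjusted p = 0.149). Both had the same sign there without passing the test, and their WT levels were above those of replicates 3 and 4, which were scaled separately. Of 52 epithelial genes 25 rose in this set, with a median of 1.20, and of 42 sarcomere genes 23 fell, with a median of -1.72.

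**Figure D3:**
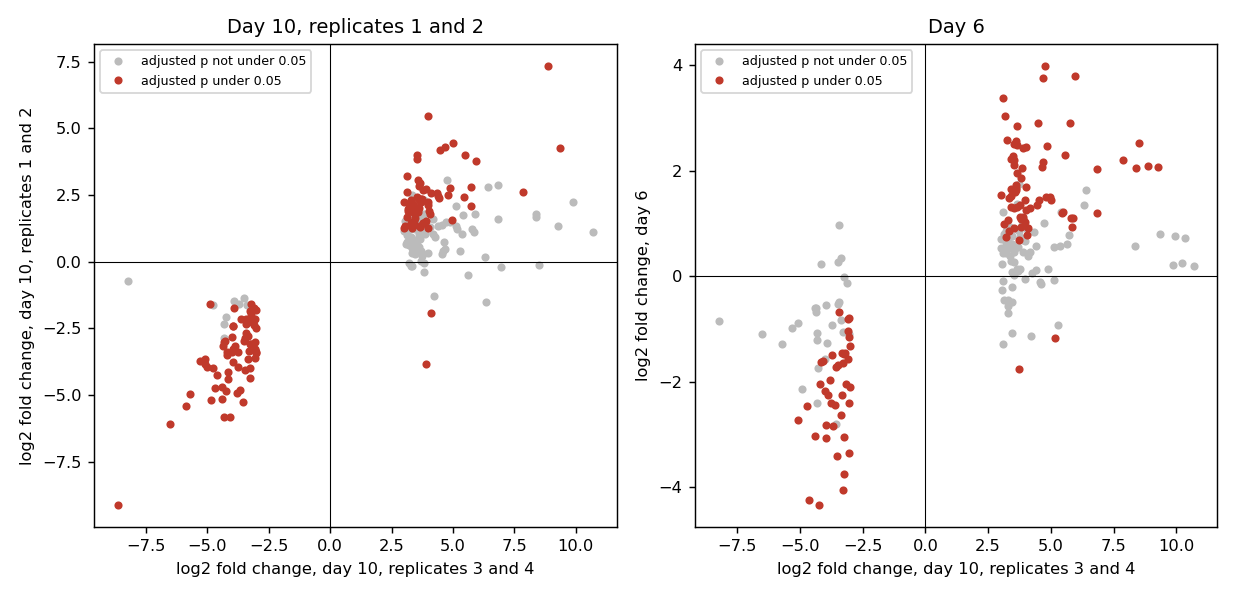
Log2 fold changes of the genes called at day 10 from replicates 3 and 4 (x axes) against their log2 fold changes in replicates 1 and 2 of day 10 (left, 233 genes) and at day 6 (right, 226 genes). Red points passed an adjusted p under 0.05 in the second reading. The points of genes called lower lie below 0 in the left panel without exception, and most points of genes called higher lie above 0 in both panels.

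The libraries of days 0, 2 and 6, which are separate samples, showed when the differences were present. At day 6, 933 genes rose (5.67%) and 877 fell (5.33%) at 5% FDR, and 76 were called at 8-fold and 1% FDR (0.462%). Of the 157 genes called higher at day 10 that were measured at day 6, 139 were higher then and 72 passed 5% FDR, and of 69 genes called lower, 65 were lower and 40 passed. At day 2, where 0.206% of genes rose and 0.285% fell, 0 of 125 higher genes passed edgeR's test at 5% FDR in their day 10 direction, with 21 at an unadjusted p under 0.05, and 3 of 57 lower genes passed. At day 0, where 2.48% of genes rose and 1.46% fell, 12 of 132 and 5 of 56 passed. Among sarcomere genes at day 6, 33 of 40 fell, with a median of -1.27, and among epithelial genes 21 of 53 rose, with a median of 0.58. At day 2, 1 of 27 sarcomere genes rose and 1 fell.

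Levels over the time course, scaled over all libraries, showed how the groups parted. GRHL2 stood at 99.8 and 101 CPM in WT at day 0, 18.1 and 22.7 CPM at day 6 and 1.91 and 3.01 CPM at day 10. In ZEB2 shRNA cells it stood at 107 and 106 CPM at day 0, 58.1 and 57.5 CPM at day 6 and 86.8 and 64.7 CPM at day 10. The day 10 libraries are replicates 3 and 4. In replicates 1 and 2 of day 10, scaled separately, GRHL2 stood at 7.14 and 5.29 CPM in WT and 20.0 and 17.3 CPM in ZEB2 shRNA cells (1.58, adjusted p = 0.0322). CDH1 went from 253 and 231 CPM at day 0 to 27.8 and 11 CPM at day 10 in WT, and from 242 and 228 to 188 and 161 CPM in ZEB2 shRNA cells. GABRP had another course, with 4.75 and 5.08 CPM in WT and 3.99 and 3.04 CPM in ZEB2 shRNA cells at day 0, 74.2 and 77.8 CPM in WT and 288 and 339 CPM in ZEB2 shRNA cells at day 6, and 1.7 and 2.58 CPM against 734 and 655 CPM at day 10. Both lines had more GABRP at day 6 than at day 0. At day 10 WT replicates 3 and 4 were under the day 0 level of WT, while WT replicates 1 and 2, scaled separately, held 19.3 and 16.6 CPM, above it. MYOM1 stood at 178 and 149 CPM in WT and 35.7 and 25.1 CPM in ZEB2 shRNA cells at day 6, and at day 10 at 756 and 616 CPM in WT and 61.6 and 40.4 CPM in ZEB2 shRNA cells.

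**Figure D4:**
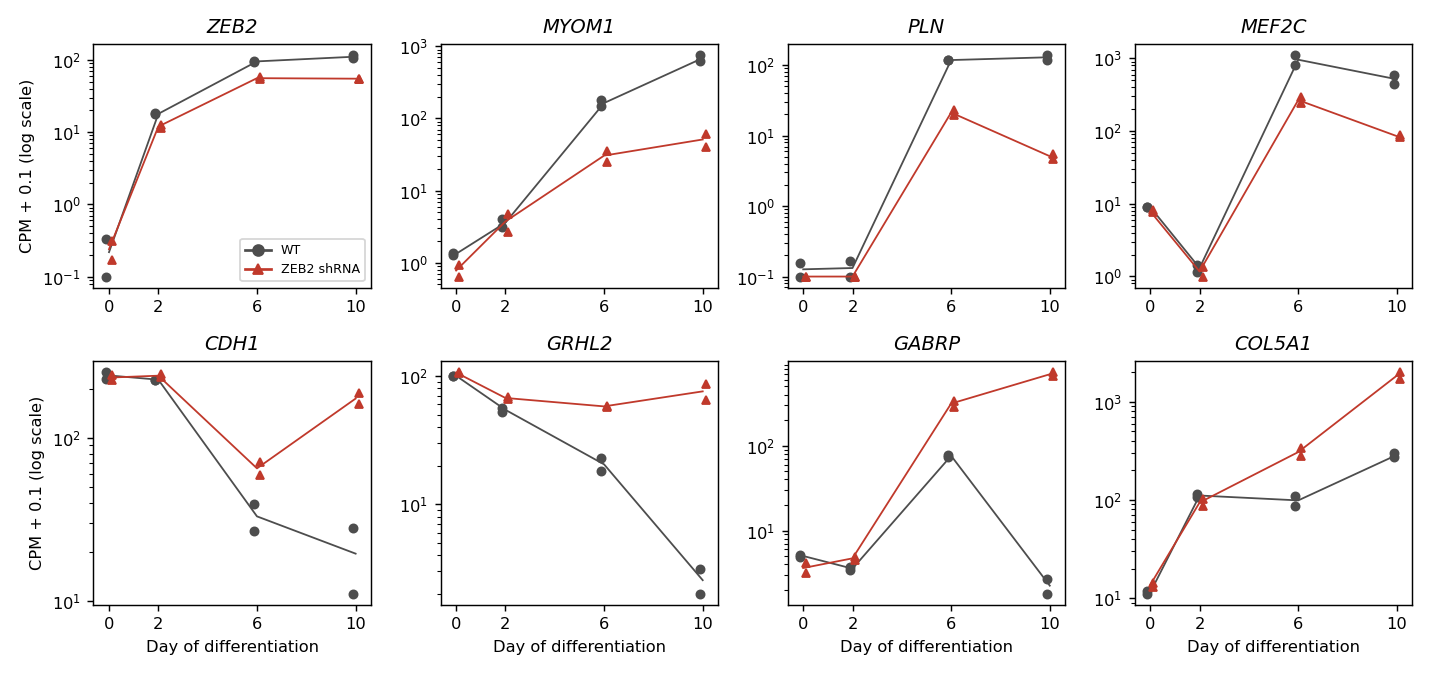
Levels of 8 genes at days 0, 2, 6 and 10 in WT (circles) and ZEB2 shRNA cells (triangles), as CPM + 0.1 on a log axis, with a point for each library and a line through the group means. ZEB2, MYOM1, PLN and MEF2C are in the upper row and CDH1, GRHL2, GABRP and COL5A1 in the lower row. The lines of the groups lie close at days 0 and 2 for CDH1 and GRHL2 and are furthest apart at day 10.

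The effect of the knockdown differed between day 10 and day 6 for 1233 of 17498 genes (7.05%) by an interaction test at 5% FDR, with 772 differences positive (4.41%) and 461 negative (2.63%). The day 10 libraries in this test were replicates 3 and 4 and the day 6 libraries replicates 1 and 2, so that day and replicate set cannot be told apart. For GRHL2 the effect at day 10 minus that at day 6 was 3.47 (SE 0.40, adjusted p = 0.000956), for GABRP 6.33 (adjusted p = 0.000525), and for CDH1 2.13 (adjusted p = 0.0134). For MYOM1 it was -1.36 (adjusted p = 0.0717), and for PLN -2.24 (adjusted p = 0.0134). With day 10 replicates 1 and 2 in place of 3 and 4, a test added after seeing the data, 798 of 16741 genes differed (4.77%), and of the 1233 genes 1190 were measured, 1053 had the same sign and 296 passed with it. In that test the value was 0.09 for GRHL2 (adjusted p = 0.925), -0.24 for GABRP (adjusted p = 0.861) and 0.73 for CDH1 (adjusted p = 0.119), none of which passed, and -0.96 for MYOM1 (adjusted p = 0.187) and -2.25 for PLN (adjusted p = 0.0163). The difference between the days thus passed for PLN with either set, and for GRHL2, GABRP and CDH1 with replicates 3 and 4. The count in replicates 3 and 4 was 667 without WT replicate 4, 467 without ZEB2 shRNA replicate 3 and 350 without ZEB2 shRNA replicate 4 of day 10, and 385 without WT replicate 2, 366 without ZEB2 shRNA replicate 1 and 421 without ZEB2 shRNA replicate 2 of day 6.

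NKX2-5 shRNA cells at day 10, a line in which the cardiac factor NKX2-5 was targeted, were compared directly with ZEB2 shRNA cells, without WT as the reference. The comparison came from the same fit of 6 libraries, so the WT libraries still shared in its scaling and its estimate of the spread. It called 330 genes (1.94%), of which 202 were higher (1.19%) and 128 lower (0.753%) in ZEB2 shRNA cells. At 5% FDR 10.8% of genes were higher and 10.6% lower. The count was 28 without ZEB2 shRNA replicate 3, 70 without ZEB2 shRNA replicate 4 and 1023 without NKX2-5 shRNA replicate 2. Sarcomere genes were higher in ZEB2 shRNA cells in 31 of 42 cases and lower in 3, with a median of 3.11, so that ZEB2 shRNA cells stood between the other lines, at a summed 96557 and 85442 CPM in WT, 23642 and 17694 CPM in ZEB2 shRNA and 6790.2 and 5484 CPM in NKX2-5 shRNA cells. RYR2 stood at 6.67 and 25.5 CPM in NKX2-5 shRNA cells, under the level in ZEB2 shRNA cells (5.51, adjusted p = 0.00271).

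Epithelial genes differed in both directions between the shRNA lines. Of 53, 5 were higher and 11 lower in ZEB2 shRNA than in NKX2-5 shRNA cells, with a median of -0.61. CDH1 stood at 247 and 210.3 CPM and RAB25 at 44.1 and 42.2 CPM in NKX2-5 shRNA cells, and the difference between the lines was -0.37 (SE 0.37, adjusted p = 0.499) and 0.04 (SE 0.23, adjusted p = 0.908). GRHL2, at 6.87 and 12.3 CPM in NKX2-5 shRNA cells, was higher in ZEB2 shRNA cells (3.00, adjusted p = 0.0033). The AP-2 gene TFAP2A was at 0 counts in both NKX2-5 shRNA libraries, and GABRP stood at 1.18 and 0 CPM there (adjusted p = 0.00136 and 0.00148), so that these genes were high in ZEB2 shRNA replicates 3 and 4 against both other lines.

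Genes of blood and liver were lower in ZEB2 shRNA than in NKX2-5 shRNA cells. Of 27 blood genes, 25 were lower and 1 was higher, with a median of -7.26, and of 27 hepatic and yolk sac genes 17 were lower, with a median of -1.70. The embryonic globin gene HBE1 stood at 3.82 and 6.09 CPM in ZEB2 shRNA and 714 and 801 CPM in NKX2-5 shRNA cells (-7.26, adjusted p = 0.00185), a gene with 81.3% of its exonic bases in an overlapping transcript. AFP stood at 4901 and 6008 CPM in ZEB2 shRNA and 31328 and 20034 CPM in NKX2-5 shRNA cells (-2.24, adjusted p = 0.0186). In neither gene did the libraries of the lines overlap.

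**Figure D5:**
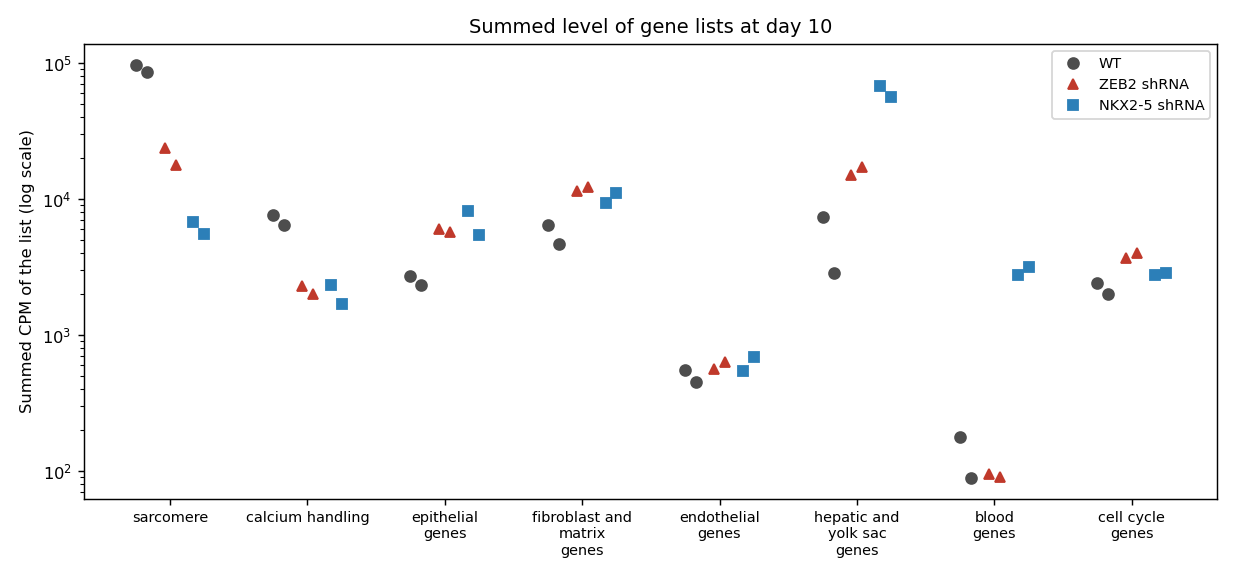
Summed CPM of 8 gene lists at day 10 on a log axis, with a point for each library of WT (circles), ZEB2 shRNA (triangles) and NKX2-5 shRNA cells (squares). Sarcomere genes step down from WT to ZEB2 shRNA to NKX2-5 shRNA cells, epithelial genes are higher in both shRNA lines than in WT, and the blood genes of the NKX2-5 shRNA libraries lie at 2749 and 3129 CPM, above those of WT and ZEB2 shRNA cells.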

How the data were processed

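Per the study's methods, the authors mapped paired-end reads of stranded total RNA libraries (HiSeq2500) to hg19 (GRCh37) with TopHat2 2.0.14, Bowtie2 2.2.1.0 and SAMtools 0.1.19.0, and counted them per RefSeq gene region with RSeQC. The strand setting of the counting is not given in the sources used here. What the authors deposited are raw counts of reads, not normalized, for 41627 RefSeq accessions, and the methods of the study name edgeR for its own tests. Of the accessions 40281 (96.8%) were matched to a symbol, and each of 23185 symbols was represented by its row with the highest sum, since rows of 1 gene share reads. Depth sets the precision of low genes, and intervals and limits cover counting error only.

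WT and ZEB2 shRNA replicates 3 and 4 and NKX2-5 shRNA replicates 1 and 2 of day 10 were fitted together, 6 libraries in all, with edgeR 4.0.16 in R 4.3.3 (TMM, filterByExpr, glmQLFit, glmQLFTest, prior count 0.125, Benjamini-Hochberg over all genes tested). Days 0, 2 and 6 were fitted each with all groups of the day. DESeq2 1.42.0 and other fits were alternatives. The scripts were tested on simulated data. The 4 columns with 42704 rows were aligned with the accession column, order kept, using a pair hidden Markov model that kept 38365 rows (92.2%) with a posterior of at least 0.9. The model compared the mean log2 level of these columns with that of WT and ZEB2 shRNA replicates 3 and 4 of day 10. On libraries of known order 99.8% of kept rows between day 6 and day 10, and 99.99% between replicates, were right. WT and ZEB2 shRNA libraries share the numbers 3 and 4, but the differences of replicate 3 from replicate 4 correlated at -0.194 over 17002 genes, so no block was used. The replicates of each group differed by more than sampling noise.

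The 25 gene lists, the markers and the genes named were chosen with earlier results of these data known. The rule for names took ZEB2, the 12 largest rises and falls among called genes without overlap and with at least 5 CPM in the higher group, and from each list up to 8 called members, the 6 with the smallest p past 5% FDR and the 3 most abundant. The markers fixed for checking cell types are named as well. One result under this rule is not reported here.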

Additional observations from a re-analysis of the deposited data

Results flagged for a closer look

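The effect of ZEB2 shRNA at day 10 differed from that at day 6 for 1233 genes at 5% FDR by edgeR's interaction test, in which day 10 is represented by replicates 3 and 4 and day 6 by replicates 1 and 2, and among the genes named 22 differed by 8-fold or more at 1% FDR. The value for each is the log2 fold change at day 10 minus that at day 6. It was positive for NECTIN4 (10.90), VGLL1 (10.05), LINC00379 (10.03) and ISM1 (9.61), whose WT libraries of day 10 were at 0, so that these fitted values depend on the prior count and are no bound. TFAP2A (7.81) and TFAP2C (4.74) held at most 4 counts in a WT library of day 10. Genes with counts in both WT libraries of day 10 were GABRP (6.33), VTCN1 (5.64), TNFSF15 (4.80), GRHL2 (3.47), AP1M2 (3.14), MSX1 (3.06), NKD1 (3.17), SOX7 (4.17), CD34 (4.01) and HLA-B (3.02). Of these, VTCN1 held 10 and 1 counts and TNFSF15 6 and 2 counts in WT. Both, and SOX7, were under the limit of 3 counts in WT replicate 4. Genes of matrix and yolk sac endoderm were also among the 22, with COL12A1 (6.32), COL6A3 (5.46), COL3A1 (4.41), POSTN (3.66) and AFP (3.25). At day 6 COL12A1 (-1.18), COL6A3 (-1.77), COL3A1 (-1.48) and AFP (-1.91) were lower in ZEB2 shRNA cells (adjusted p = 0.0117, 0.0091, 0.00499 and 0.00076), so that their effects differed in direction between the days, and AFP did not pass at day 10 (adjusted p = 0.0778). For NELL2 the value was negative (-4.41), with a larger fall at day 10. With day 10 replicates 1 and 2 in place of 3 and 4, added after seeing the data, the difference passed 5% FDR in the same direction for COL3A1 (2.47, adjusted p = 0.0213), HLA-B (1.68, adjusted p = 0.0142) and NELL2 (-3.62, adjusted p = 0.0279), and in the other direction for POSTN (-2.33, adjusted p = 0.0249). It did not pass for the other 17 of the 21 that were tested, with 0.09 for GRHL2, -0.24 for GABRP, -0.35 for TNFSF15 and 0.46 for VTCN1.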

How the results depend on the processing

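The number of called genes, 248 (166 higher, 82 lower), differed between fits. It was 435 (299 and 136) with DESeq2, 512 (358 and 154) in a fit of the 4 libraries, 578 (407 and 171) in a fit of all libraries, 582 (414 and 168) with edgeR's exact test, 478 (335 and 143) with a replicate block in the 4 libraries, and 562 (402 and 160) with the pairing crossed, an alternative added after seeing the data. With 5% FDR and no fold threshold it was 3096 (1791 and 1305). All 4 replicates called 137 genes (53 higher), replicates 1 and 2 alone 80 (13 higher), and the same without NKX2-5 libraries, added after seeing the data, 58 higher and 145 lower. The first 5 fits held 245 to 248 of the 248 genes, and replicates 1 and 2 held 37 of them, which is 14.9% of the 248 and 46.2% of the 80. Leaving out 1 library gave 0 to 0 calls, in fits where the lone library left is assumed to vary like the other groups.

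ZEB2 itself changed by -1.04 with DESeq2 (adjusted p = 0.0266), -1.01 in the 4-library fit (adjusted p = 0.000982), -1.02 in the fit of all libraries (adjusted p = 0.00707), -1.01 with the replicate block (adjusted p = 0.00234), -1.02 by the exact test (adjusted p = 0.0321), -1.17 over all 4 replicates (adjusted p = 0.0360) and -1.47 in replicates 1 and 2 (adjusted p = 0.0353). Without 1 library it ran from -1.09 to -0.94.

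List counts without 1 library ran from 7 to 12 for sarcomere genes, 1 to 3 for calcium handling, 14 to 24 for epithelial genes, 7 to 9 for matrix, 0 to 8 for blood, 1 to 24 for hepatic and 0 to 4 for cell cycle genes. Replicates 1 and 2 gave 25 epithelial, 4 matrix (8 without NKX2-5 libraries), 6 blood (6) and 7 hepatic genes, and 32 cell cycle genes without NKX2-5 libraries. All 4 replicates gave 7 matrix and 10 hepatic genes, and the fit of all libraries 31 cell cycle genes. Without 1 library, day 6 called 49 to 77 genes (76 with all), the day 10 to day 6 interaction counted 667, 467 or 350 genes without WT replicate 4, ZEB2 shRNA replicate 3 or 4 of day 10 and 385, 366 or 421 without WT replicate 2, ZEB2 shRNA replicate 1 or 2 of day 6, and 798 with day 10 replicates 1 and 2 in place of 3 and 4, and ZEB2 against NKX2-5 shRNA 28 to 1023. In replicates 1 and 2 the sign turned for AFM (-0.20), SLN (-1.29), KCNJ2 (-0.22), POSTN (-1.93), AFP (-0.52) and APOB (-0.24). Of 2015 values for 135 named genes under the alternatives, 1729 kept direction and side of the threshold, 246 no longer passed, 34 newly passed and 6 turned. Each cause was not tested. With 2 libraries a group, and 9189588 counts in the smallest, low genes are the least precise.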
